A study of Mus musculus with 92 samples.

Results

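The genes described here are 8 genes of fatty acid synthesis and desaturation and of its control by sterol regulatory element-binding proteins (SREBPs), measured in mouse quadriceps muscle: Srebf1, Insig1, Fasn, Elovl6, Scd1, Scd2, Fads1 and Fads2. They were taken by name, and all 8 were among the 13441 genes of the table. The samples were quadriceps muscles of 92 DOz mice, a genetically outbred stock, and formed a single group. All animals had eaten standard chow throughout life, were about 18 to 20 weeks old, and received no further treatment according to the labels. The questions were how far the genes differed between animals, which of them moved together, and how much of their variation followed Adipoq, the adipocyte hormone adiponectin, or Cers1, the ceramide synthase of the C18 form in muscle. Values are deposited log2 expression values on a scale close to log2 CPM, the usual depth-scaled unit of read counts.

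Fatty acid synthase builds palmitate from acetyl and malonyl units, elongases lengthen it, and desaturases introduce double bonds. SREBP-1, the product of Srebf1, is a membrane-bound transcription factor that is cleaved and moves to the nucleus, where it raises transcription of these enzymes; the related SREBP-2 acts mainly on genes of cholesterol synthesis and uptake. Insig1 holds the SREBP escort protein in the endoplasmic reticulum and is itself a target of the pathway. Adipocytes, which occur between muscle fibres, and the fibres themselves can both carry these transcripts.

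The tissue label was checked against marker genes. Myh4, the fast myosin heavy chain, had a mean of 15.90 ± 0.24 (SD, n = 92), and all 8 fast skeletal muscle markers had means of 12.36 or more. All 10 adipocyte markers were in the table, with means from 1.25 for Adrb3 to 9.35 for Car3, a gene also expressed in muscle fibres. The summed level of the adipocyte markers ranged from 8.39 to 11.52 on the log2 scale between animals. The sum is taken on the linear scale, so Car3 and Fabp4 (mean 7.51) weigh most in it, against a mean of 3.90 for Adipoq. In whole muscle, fewer cells of a type and less RNA per cell cannot be told apart. The sums of the values per animal, after raising 2 to each value, ranged from 898071 to 1140761, and the number of reads per library is unknown.

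Upstream sequence of 3 members is shown, because Fasn belonged to the group that followed Adipoq, and Insig1 and Srebf1 to the group that followed Cers1. RefSeq promoters (build GRCm38.p6) were on hand for 5 members with 7 start sites: Fasn, Fads2, Elovl6, Insig1 and Srebf1. Bases before the annotated transcript are printed 5′ to 3′ on the gene's strand, and capitals mark matches to the searched letters. The Fasn sequence is chr11:120824548-120824797 on the minus strand, the Insig1 sequence is chr5:28071162-28071362 on the plus strand, and the Srebf1 sequence, upstream of an internal start site, is chr11:60210472-60210721 on the minus strand.
Fasn: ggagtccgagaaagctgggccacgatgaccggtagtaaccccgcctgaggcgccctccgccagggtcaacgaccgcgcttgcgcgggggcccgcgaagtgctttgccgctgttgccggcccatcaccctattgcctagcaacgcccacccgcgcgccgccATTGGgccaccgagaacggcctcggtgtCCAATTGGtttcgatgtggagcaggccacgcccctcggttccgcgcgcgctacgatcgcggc
Insig1: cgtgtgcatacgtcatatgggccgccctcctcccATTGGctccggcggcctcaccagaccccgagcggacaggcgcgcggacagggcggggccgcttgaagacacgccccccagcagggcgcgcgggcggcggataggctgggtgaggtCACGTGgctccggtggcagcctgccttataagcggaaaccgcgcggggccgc
Srebf1: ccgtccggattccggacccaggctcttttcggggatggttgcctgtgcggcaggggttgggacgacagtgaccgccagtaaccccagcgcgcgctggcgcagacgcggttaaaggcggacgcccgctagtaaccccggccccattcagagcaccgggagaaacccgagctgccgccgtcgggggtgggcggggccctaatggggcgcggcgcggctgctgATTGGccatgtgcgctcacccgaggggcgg
The searched letters were CCAAT, bound by NF-Y, CACGTG, an E-box, and TCACNCCAC, a form of the sterol regulatory element; the DR4 direct repeat bound by the liver X receptor (LXR) was searched in its perfect consensus form. Both strands were searched, from 250 bases before to 50 bases after each start, so that ATTGG is CCAAT on the other strand. CCAAT was found at 4 of the 7 member start sites, against 37.4% of 32851 RefSeq promoters of the same length. The Fasn window held 3 matches, of which a pair overlaps in CCAATTGG. CACGTG was found at 1 of the 7, that of Insig1, against 7.15% of all promoters. TCACNCCAC was in 0 of the 7 and in 1.24% of all promoters, and the DR4 repeat in 0 of the 7 and in 0.0152%. No match says only that these letters are not in this window. The perfect DR4 repeat was in 5 of 32851 promoters, so its absence from 7 cannot tell members from other genes. Variant forms of the searched elements were not searched and are not marked in the printed sequences.

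Srebf1 (ENSMUSG00000020538, chromosome 11, 60199089 to 60222581, GRCm38) encodes the transcription factor itself. Its lowest level among the 92 animals was 4.28, the median 5.82 and the highest 6.96, with a mean of 5.73 ± 0.54 (SD, n = 92). Insig1 (ENSMUSG00000045294, chromosome 5, 28071363 to 28078662), the retention protein, ran from 3.44 through a median of 4.51 to 5.82, with a mean of 4.51 ± 0.47 (SD, n = 92). The regulators thus spanned a narrower range than most of the enzymes. The interquartile range corresponded to 1.63-fold for Srebf1 and 1.57-fold for Insig1.

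Fasn (ENSMUSG00000025153, chromosome 11, 120805846 to 120824547), the fatty acid synthase, had a lowest level of 3.81, a median of 6.02 and a highest level of 10.65. The ends of its range were 115-fold apart, and the mean was 6.14 ± 1.39 (SD, n = 92). Elovl6 (ENSMUSG00000041220, chromosome 3, 129532355 to 129638495), which elongates palmitate toward stearate, ran from -0.62 through 1.83 to 6.97, with a mean of 2.02 ± 1.31 (SD, n = 92). Its ends were 7.59 apart on the deposited log2 scale, the widest range of the 8 genes on that scale. The low end is a low level in 1 animal, number 62, and the rank of this range depends on the scale. A small number of animals carried much of the total: animals 54 and 20 together held 27.8% of the Elovl6 level and 22.5% of the Fasn level summed over all 92 animals on the linear scale.

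Scd1 (ENSMUSG00000037071, chromosome 19, 44394455 to 44407879), a stearoyl-CoA desaturase that makes oleate, was the most abundant member. Its lowest level was 5.11, its median 8.41 and its highest 11.72, with a mean of 8.41 ± 1.17 (SD, n = 92). Scd2 (ENSMUSG00000025203, chromosome 19, 44293674 to 44306864), a second enzyme of the same activity encoded nearby, ran from 4.18 through 6.17 to 8.14, with a mean of 6.07 ± 0.87 (SD, n = 92). Both desaturases varied widely, 97.5-fold for Scd1 and 15.5-fold for Scd2. Near-identical stretches could let reads be divided between the copies: 8.14% of the 31-base words in Scd1 transcripts and 6.81% of those in Scd2 also occur in transcripts of other genes, mainly Scd3, Scd4 and each other. The share was 6.41% for Elovl6, mainly with Gm11295, and 3.46% for Insig1.

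Fads1 (ENSMUSG00000010663, chromosome 19, 10182888 to 10196877), the delta-5 desaturase of polyunsaturated fatty acids, ran from 2.0 through 2.97 to 4.08, with a mean of 2.97 ± 0.39 (SD, n = 92). Fads2 (ENSMUSG00000024665, chromosome 19, 10062765 to 10101746), the delta-6 desaturase, ran from -0.20 through 1.15 to 2.74, with a mean of 1.23 ± 0.62 (SD, n = 92). These were the members with the spread closest to that of other genes at their level. Their SDs were 1.22 and 1.23 times the SD that the trend over all genes gives at those means.

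**Figure D1:**
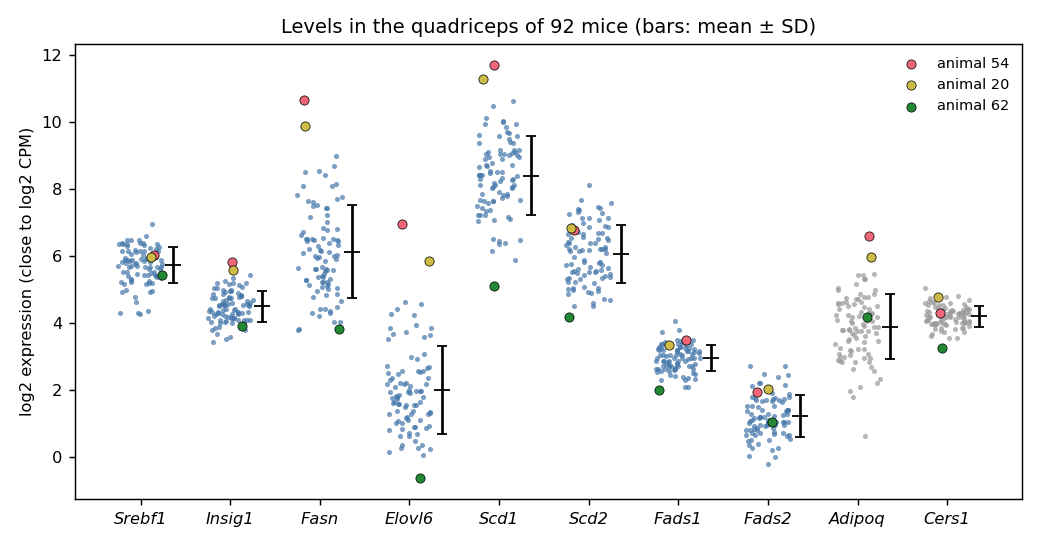
Deposited log2 level (vertical axis, close to log2 CPM) of the 8 members, Adipoq and Cers1 in each of 92 mice; each point is 1 animal and the bars give mean ± SD. Animals 54 and 20 lie above all others in Fasn, Elovl6, Scd1, Insig1 and Adipoq, and animal 62 is lowest in Elovl6, Scd1, Scd2, Fads1 and Cers1.

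After division by merged exon length, Scd1 stood highest, followed by Scd2, Srebf1, Insig1, Fasn, Fads1, Fads2 and Elovl6. Scd1 exceeded Scd2 by 2.50 ± 1.20 (SD of the within-animal log2 difference per kilobase, n = 92) and was higher in 90 of 92 animals. The next 2 differences were smaller than their SD between animals. Scd2 exceeded Srebf1 by 0.38 ± 0.59 and was higher in 69 of 92 animals. Srebf1 exceeded Insig1 by 0.36 ± 0.42 and was higher in 74. Insig1 and Fasn differed by 0.19 ± 1.18, with Insig1 higher in 56 animals and Fasn in 36. A clear step followed, with Fasn 1.99 ± 1.36 above Fads1 in 86 of 92 animals. Fads1 exceeded Fads2 by 1.19 ± 0.59 in 88 animals, while Fads2 and Elovl6 differed by 0.18 ± 1.5. With the longest coding transcript as the length, a choice made after seeing the data, Srebf1 lay 0.01 above Scd2, so that the order of this pair depends on the length used.

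The spread of 6 of the 8 members was in the upper 10% of all genes relative to the trend of SD on mean level. Fasn had 6.67 times the trend SD (percentile 99.9), Scd1 5.74 times, Scd2 4.16 times and Elovl6 3.19 times. In the table, 127 genes, Fasn included, had an SD at least as large as that of Fasn. The median SD of the members was 0.74, against 0.32 for all genes. On the log2(value + 1) scale the same bound also held 6 members, as it did when genes with a mean under 1 were left out.

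The extreme animals were shared between genes. Animal 54 was highest and animal 20 next in Fasn, Elovl6, Scd1, Insig1 and Adipoq. In animal 54, Fasn was 10.65, Elovl6 6.97, Scd1 11.72 and Adipoq 6.61, while its Srebf1 level of 6.04 ranked 28th and its Scd2 level of 6.78 ranked 22nd. Animal 27 was highest in both Srebf1 (6.96) and Scd2 (8.14), with Fasn at 6.32 and Adipoq at 3.80. Animal 62 was lowest in Elovl6 (-0.62), Scd1 (5.11), Scd2 (4.18), Fads1 (2.0) and Cers1 (3.26), with Adipoq at 4.19, the 39th highest. Animal 40 was highest in Fads1 (4.08) and Fads2 (2.74) but next to lowest in Elovl6 (0.07).

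Fasn, Scd1 and Elovl6 rose with Adipoq, and the other 5 members did not pass the test. Adipoq itself ranged from 0.63 in animal 69 through a median of 3.91 to 6.61 in animal 54. Slopes are log2 changes per SD of Adipoq from limma, with Benjamini-Hochberg adjustment over 13440 genes. Of all genes tested, 3.9% were called in either direction and 3.16% as rising. Fasn rose by 0.84 ± 0.11 (SE) with an adjusted p of 6.84e-09 in limma. Scd1 rose by 0.80 ± 0.09 (limma adjusted p = 2.86e-12), and Elovl6 by 0.70 ± 0.11 (limma adjusted p = 2.88e-06). These 3 calls were also made in each of the 11 alternative fits, without animals 20 and 54 among them.

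For the other members the slopes on Adipoq were small. Insig1 had 0.12 ± 0.05 (limma adjusted p = 0.141), Srebf1 0.08 ± 0.06 (limma adjusted p = 0.535) and Fads1 0.06 ± 0.04 (limma adjusted p = 0.550). Without animals 20 and 54, the slope of Insig1 was 0.06 ± 0.05 (limma adjusted p = 0.572) and that of Fads1 0.03 ± 0.04 (limma adjusted p = 0.771). Without animals 69 and 54, the slope of Insig1 was 0.09 ± 0.05 (limma adjusted p = 0.486) and that of Fads1 0.03 ± 0.04 (limma adjusted p = 0.887). Scd2 had a slope of -0.01 ± 0.09 and Fads2 of -0.00 ± 0.06. A pair of desaturases that do the same reaction thus had slopes of 0.80 and -0.01 on the same predictor. Their difference on this predictor was not tested. With the adipocyte markers other than Adipoq as the predictor, Insig1 passed the test at 0.15 (limma adjusted p = 0.0439). With Cers1 as a covariate, it passed the test at 0.15 ± 0.04 (limma adjusted p = 0.00915), in a fit that called 3.76% of all genes.

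Correlations over the 92 animals were computed for the 45 relations between the members, Adipoq and Cers1. Pearson's r with Adipoq was 0.685 for Scd1 (Spearman's rho 0.668, permutation p = 1e-05 for both, the smallest that 100000 resamples can give). Without the 2 animals farthest from the median of Adipoq, numbers 69 and 54, it was 0.629. Fasn had r = 0.609 and rho = 0.572 (permutation p = 1e-05 for both), and 0.546 without those animals. Elovl6 had r = 0.532 and rho = 0.521 (permutation p = 1e-05 for both), and 0.474 without them. Titles end in numbers that form 5 runs, a possible batch whose meaning the labels do not state, and r was positive within each run, with lowest values of 0.575 for Scd1, 0.297 for Fasn and 0.351 for Elovl6. Without animals 20 and 54, r was 0.631, 0.533 and 0.429 in the same order.

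The score of all 10 adipocyte markers moved with the same genes. It had r = 0.771 with Scd1, 0.710 with Fasn, 0.646 with Elovl6, 0.312 with Insig1, 0.217 with Fads1, 0.166 with Srebf1, 0.055 with Scd2 and -0.011 with Fads2. The adipocyte markers Plin1, Cidec and Adipoq had means of 3.80, 3.40 and 3.90. The part of adipocyte number or adipocyte RNA in these relations was not tested.

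Scd2, Srebf1 and Insig1 rose with Cers1. Cers1 ranged from 3.26 in animal 62 through a median of 4.24 to 5.06 in animal 68. In the annotation, 42.5% of the exon bases of Cers1 are shared with Gdf1, which was not analysed here, so the predictor may carry both transcripts. Of 13440 genes, 4.87% were called along Cers1 in either direction. Scd2 rose by 0.51 ± 0.07 per SD of Cers1 (limma adjusted p = 2.01e-06). Srebf1 rose by 0.27 ± 0.05 (limma adjusted p = 0.000144) and Insig1 by 0.25 ± 0.04 (limma adjusted p = 4.32e-05). All 3 calls were also made in each of the 11 alternative fits of this slope, without animal 62 among them.

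The 3 genes that rose with Adipoq had positive slopes on Cers1 that did not pass the test. Fasn had 0.34 ± 0.14 (limma adjusted p = 0.139), Elovl6 0.25 ± 0.13 (limma adjusted p = 0.282) and Scd1 0.23 ± 0.12 (limma adjusted p = 0.257). Without animal 62 the slope of Scd1 was 0.13 ± 0.12 (limma adjusted p = 0.587), and without animals 20 and 54 that of Elovl6 was 0.16 ± 0.12 (limma adjusted p = 0.470). With Adipoq in the model, Fasn had 0.43 ± 0.11 (limma adjusted p = 0.00740) and Scd1 0.32 ± 0.08 (limma adjusted p = 0.0119), both past the test in a fit that called 4.95% of all genes. Fads2 had 0.13 ± 0.06 (limma adjusted p = 0.216) and Fads1 0.07 ± 0.04 (limma adjusted p = 0.305); without animal 62 the slope of Fads1 was 0.04 ± 0.04 (limma adjusted p = 0.602).

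Pearson's r with Cers1 was 0.587 for Scd2, 0.530 for Insig1 and 0.495 for Srebf1. Spearman's rho was 0.568, 0.531 and 0.489, with a permutation p of 1e-05 for each value of r and rho. Without animals 62 and 68, the 2 farthest from the median of Cers1, r was 0.546, 0.508 and 0.506. It was positive in each of the 5 title-number runs for all 3 genes, with lowest values of 0.462, 0.318 and 0.319. Adipoq and Cers1 themselves had r = -0.0994 (rho = -0.108, permutation p = 0.346 for r).

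**Figure D2:**
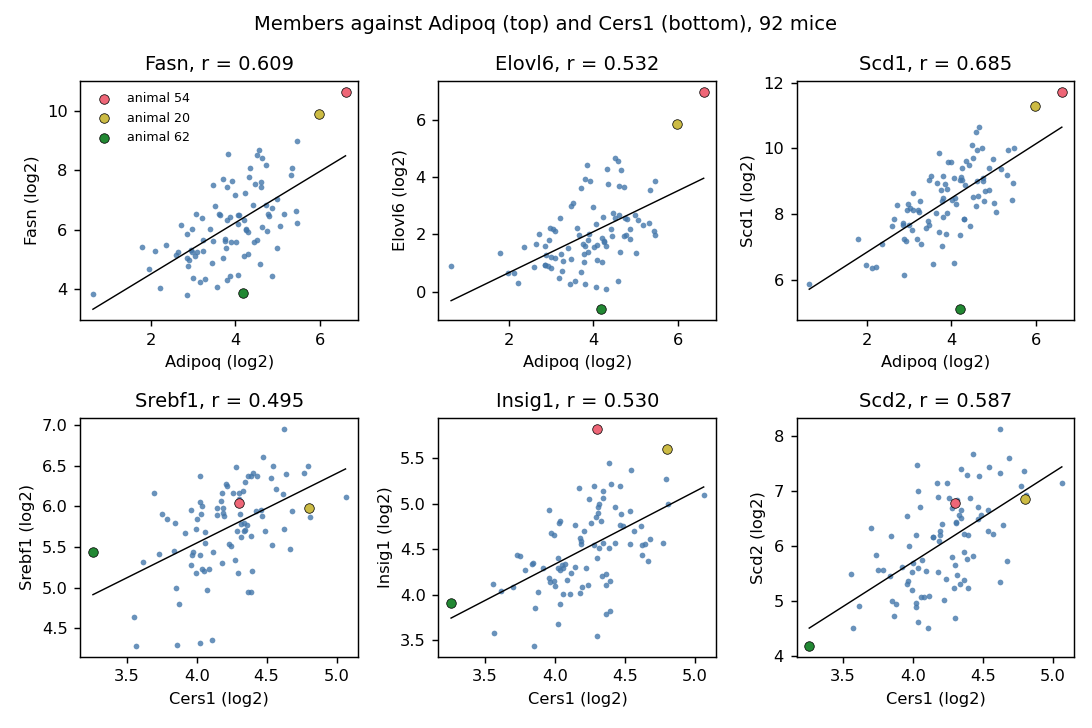
Log2 levels of Fasn, Elovl6 and Scd1 against Adipoq (top row) and of Srebf1, Insig1 and Scd2 against Cers1 (bottom row); each point is 1 of 92 mice, lines are least-squares fits and 3 animals are coloured. Pearson's r is 0.609, 0.532 and 0.685 along the top and 0.495, 0.530 and 0.587 along the bottom; animals 54 and 20 lie at the upper right of the top row.

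With both predictors in 1 model, the difference between the slopes was tested directly. It was called for 6.3% of 13439 genes. Scd1 followed Adipoq more steeply than Cers1 by 0.52 ± 0.11 (limma adjusted p = 0.000951), and Scd2 followed Cers1 more steeply, with a difference of -0.47 ± 0.10 (limma adjusted p = 0.000574). Both calls were made in all 9 alternative fits. The difference for Fasn was 0.46 ± 0.14 (limma adjusted p = 0.0336), but it did not pass in 5 of the 9. The limma adjusted p was 0.0689 with the title-number run as a covariate, 0.101 with 3 principal components and 0.154 on normal scores of the ranks. It was 0.131 without animals 69 and 54, farthest from the median of Adipoq, and 0.103 without animals 20 and 54.

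For the remaining 5 members the difference did not pass the test. Elovl6 had 0.40 ± 0.15 (limma adjusted p = 0.0839), which became a call without animal 62 (limma adjusted p = 0.0269). Srebf1 had -0.17 ± 0.06 (limma adjusted p = 0.0894) and Insig1 -0.11 ± 0.05 (limma adjusted p = 0.178). Both slopes were called in the joint model for Fasn, Scd1 and Insig1, and those of Insig1 were 0.15 ± 0.04 on Adipoq and 0.26 ± 0.04 on Cers1 (limma adjusted p = 3.06e-06). Fads2 had -0.12 ± 0.08 and Fads1 -0.02 ± 0.05.

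As shares of variance over the 92 animals, Adipoq accounted for 46.9% of Scd1, 37.1% of Fasn and 28.3% of Elovl6. Cers1 accounted for 4.0%, 5.99% and 3.72% of the same genes. Without animal 62, Pearson's r with Cers1 was 0.115 in place of 0.200 for Scd1, and 0.134 in place of 0.193 for Elovl6. The shares were the other way round in Scd2, with 0.0118% on Adipoq and 34.4% on Cers1. Insig1 had 6.88% and 28.1%, and Srebf1 2.08% and 24.5%. For comparison, the median gene had 0.913% on Adipoq and 1.08% on Cers1, and 0.0149% of genes, Scd2 included, had a share on Cers1 as large as that of Scd2. Both predictors together left 45.8% of Scd1, 53.5% of Fasn, 65.3% of Scd2 and 71.8% of Srebf1 unaccounted for. Fads1 and Fads2 had 6.14% and 4.72% on both together.

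**Figure D3:**
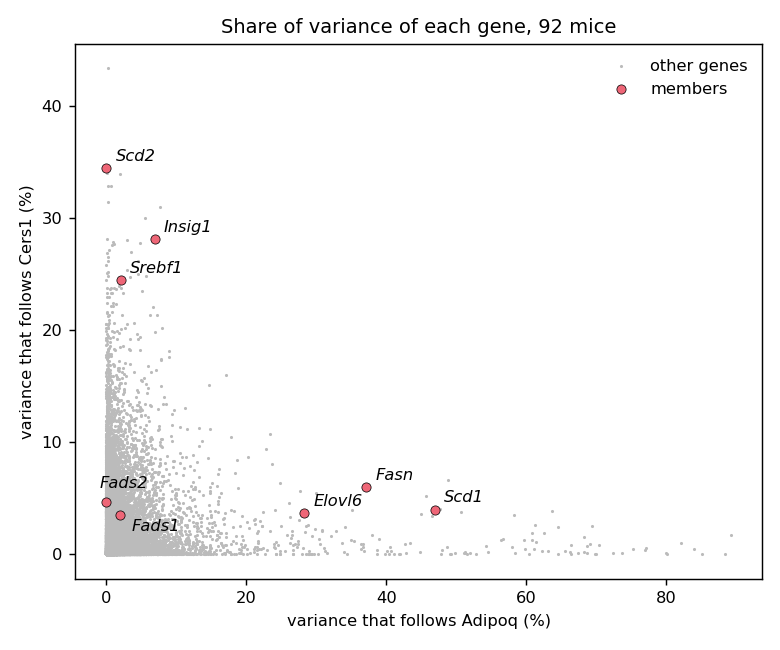
Share of each gene's variance over 92 mice that follows Adipoq (horizontal axis, percent) against the share that follows Cers1 (vertical axis, percent); grey points are the other genes and labelled points the members. Scd1, Fasn and Elovl6 lie along the horizontal axis at 46.9%, 37.1% and 28.3%, Scd2, Insig1 and Srebf1 along the vertical axis at 34.4%, 28.1% and 24.5%, and Fads1 and Fads2 near the origin.

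Among the members, Fasn, Elovl6 and Scd1 had the highest correlations with each other, followed by Srebf1, Insig1 and Scd2. A pair was counted when limma called it with each gene as the predictor, and 15 of 28 pairs were: 14 pairs among these 6 genes, all but Srebf1 with Elovl6, and Fads1 with Fads2. The share of all genes called was 0.491% along Srebf1, 1.54% along Insig1, 2.15% along Fasn, 2.07% along Elovl6, 2.36% along Scd1, 1.84% along Scd2, 9.27% along Fads1 and 1.42% along Fads2. Fasn and Elovl6 had r = 0.919 (rho = 0.892), Fasn and Scd1 r = 0.877 (rho = 0.865), and Elovl6 and Scd1 r = 0.825 (rho = 0.817), each with a permutation p of 1e-05. Within the title-number runs the lowest r of these 3 pairs was 0.751. Without animals 20 and 54, they were 0.898, 0.852 and 0.789.

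The partial r given Adipoq was 0.886 for Fasn and Elovl6, 0.796 for Fasn and Scd1, and 0.747 for Elovl6 and Scd1. Given the adipocyte marker score, they were 0.856, 0.735 and 0.673. With Adipoq as a covariate in limma, the same 15 pairs were called. Those fits called 0.476% of all genes along Srebf1, 1.29% along Insig1, 1.06% along Fasn, 0.796% along Elovl6, 0.409% along Scd1, 1.99% along Scd2, 8.73% along Fads1 and 1.52% along Fads2. Fasn, Elovl6 and Scd1 thus remained correlated given Adipoq or given the marker score. Neither is a direct measure of adipocyte content, and the adipocyte variation that remains was not tested.

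In the other set, Insig1 and Scd2 had r = 0.750 (rho = 0.796), Srebf1 and Scd2 r = 0.744 (rho = 0.747), and Srebf1 and Insig1 r = 0.657 (rho = 0.678), each with a permutation p of 1e-05. Given Cers1, the partial r of these pairs was 0.639, 0.644 and 0.536. Insig1 also correlated with Fasn (r = 0.576), Elovl6 (r = 0.536) and Scd1 (r = 0.532), and these were 0.489, 0.428 and 0.447 without animals 20 and 54, the 2 highest in Insig1.

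Srebf1 is known to induce the enzymes of fatty acid synthesis. It had r = 0.446 with Fasn (rho = 0.518, permutation p = 1e-05; limma adjusted p = 0.00755), 0.387 with Scd1 (rho = 0.435, permutation p for r = 0.000200) and 0.348 with Elovl6 (rho = 0.386, permutation p for r = 0.000840). The relation with Elovl6 was not counted, because the limma adjusted p was 0.0695 with Srebf1 as the predictor and 0.0292 with Elovl6. The lowest r of Srebf1 within a title-number run was 0.0977 with Fasn and 0.0190 with Elovl6. Fasn and Scd2 had r = 0.440, Elovl6 and Scd2 0.363, and Scd1 and Scd2 0.336; the pairs of Scd2 with Elovl6 and with Scd1 were lost without animals 20 and 54 and also without animal 62. Their r was then 0.349 and 0.331 for Elovl6 and 0.313 and 0.288 for Scd1, in that order. The pair of Scd1 and Scd2 was also lost on normal scores of the ranks and with animals centred on their median, and that of Srebf1 and Scd1 with 3 principal components.

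**Figure D4:**
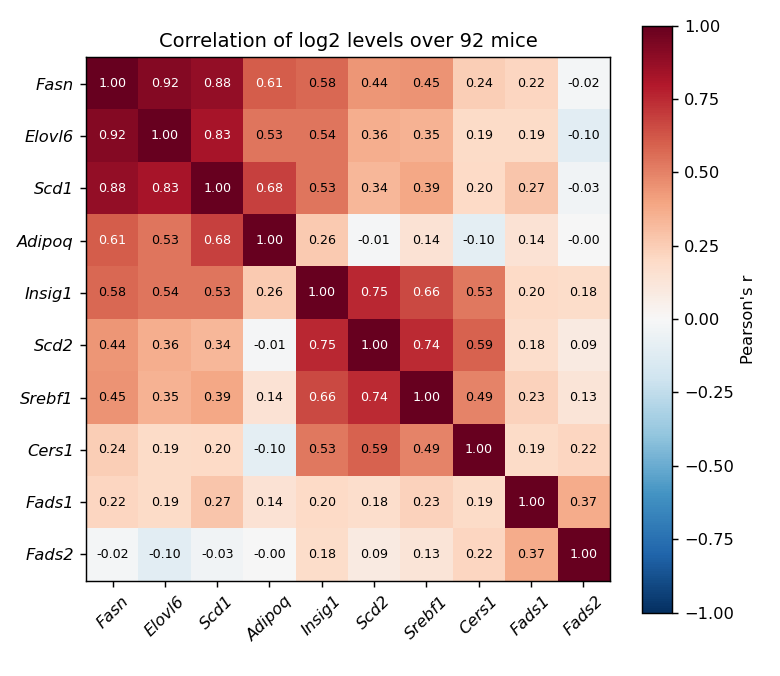
Pearson's r of log2 levels over 92 mice between the members, Adipoq and Cers1, on a colour scale from -1 to 1. Fasn, Elovl6, Scd1 and Adipoq form a red block at the upper left and Insig1, Scd2, Srebf1 and Cers1 one in the middle, with Fads1 and Fads2 paler at the lower right.

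Fads1 and Fads2 stood apart from both sets. They correlated with each other at r = 0.374 (rho = 0.373, permutation p for r = 0.000270; limma adjusted p = 0.00736 and 0.0284), and this pair was not called with the title-number run, the first 3 principal components, or Adipoq with the Schwann marker score as covariates. Their r with the other 6 members lay between -0.104 and 0.274, and none of those pairs was counted. Both genes moved with marker scores of non-fibre cells. Fads1 rose with the fibroblast score by 0.18 ± 0.04 per SD (limma adjusted p = 0.000106), where 19.8% of all genes were called, with the macrophage score by 0.15 ± 0.04 (limma adjusted p = 0.00239), where 21.3% were, and with the Schwann score by 0.16 ± 0.04 (limma adjusted p = 0.00573), where 4.21% were.

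Fads2 rose with the Schwann score by 0.24 ± 0.06 (limma adjusted p = 0.00602) and with the endothelial score by 0.23 ± 0.06 (limma adjusted p = 0.00620), where 8.89% of genes were called. Along Fads1, 6 of 8 fibroblast markers and 6 of 8 macrophage markers rose, against 5.73% of all genes rising. With 3 principal components as covariates, 0 of these markers were called along Fads1. Of the other members, Elovl6 was called on the macrophage score at 0.37 ± 0.13 (limma adjusted p = 0.0310). Summed marker levels ranged from 8.63 to 10.84 for fibroblasts, from 4.89 to 8.01 for macrophages, from 7.49 to 8.63 for endothelial cells and from 4.87 to 7.32 for Schwann cells, and their part in these relations was not tested.

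Along Adipoq, 9 of 18 listed genes of fatty acid and glycerolipid synthesis rose, against 3.16% of all genes rising, and 0 fell. Their median slope was 0.14, against -0.00 for all genes. Dgat2, which completes triglyceride synthesis, rose by 0.63 ± 0.05 per SD (limma adjusted p = 4.13e-21), and Agpat2, an acyltransferase earlier in that route, by 0.65 ± 0.06 (limma adjusted p = 4.81e-16). Slc25a1, the mitochondrial citrate carrier, rose by 0.69 ± 0.08 and Acly, which splits the exported citrate into acetyl-CoA, by 0.57 ± 0.08. The others were Acaca, Elovl5, Thrsp, Dgat1 and Pnpla3. Beside them, 8 of 9 adipocyte markers rose along Adipoq, by 1.09 ± 0.04 for Plin1 and 1.08 ± 0.04 for Cidec, both lipid droplet proteins. Of the 8 fast skeletal muscle markers, 0 were called.

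Of 22 genes of sterol synthesis and uptake, 2 rose along Adipoq, Acat2 by 0.27 ± 0.05 and Hmgcs1 by 0.07 ± 0.02, beside 3.16% of all genes. Tm7sf2, a sterol reductase, fell by 0.15 ± 0.04, against 0.737% of all genes falling. The falling share depended on the fit: genes that rose made up 81.1% of the calls along Adipoq, 94.7% without animals 69 and 54 and 65.8% with animals centred on their median. Without animals 20 and 54, 1 rose. Of 21 listed genes that process SREBPs or act with them, such as Scap and Mbtps1, 0 were called. LXR target genes gave 0 of 5 and clock genes 0 of 14.

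Along Cers1, 5 of 22 sterol genes rose, against 2.77% of all genes rising, and 0 fell. Among them were Nsdhl (0.11 ± 0.02), Msmo1 (0.13 ± 0.03) and Fdps (0.07 ± 0.02), enzymes of cholesterol synthesis. Of the 18 genes of fatty acid and glycerolipid synthesis, 0 were called, with Thrsp at 0.36 ± 0.12 (limma adjusted p = 0.0734) having the smallest p. With Adipoq as a covariate, 2 of the 18 rose, in a fit that called 4.95% of all genes in either direction. Among the regulators, the retinoid X receptor genes Rxrb (0.05 ± 0.02) and Rxra (0.06 ± 0.02) rose, and 0 of the 21 were called with 3 principal components as covariates. Of 14 clock genes, 1 rose, the nuclear receptor gene Nr1d1 by 0.16 ± 0.04 (limma adjusted p = 0.00491), and 0 were called with 3 principal components. LXR target genes gave 0 of 5, and without animal 62 1 of 5, Mylip, a gene named after its value was seen.

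Of 10 genes induced by fasting, 5 fell along Cers1, against 2.1% of all genes falling. Pdk4, which restrains glucose oxidation, fell by 0.41 ± 0.09 per SD (limma adjusted p = 0.00240), and the transcription factor gene Foxo1 by 0.21 ± 0.05 (limma adjusted p = 0.00203). Trim63, Cpt1a and Angptl4 were the others. Without animal 62, 3 of the 10 were called, also with the title-number run as a covariate, and with 3 principal components 0 were. Along Adipoq, Angptl4 rose by 0.44 ± 0.08. Slow fibre markers had negative slopes on Cers1 in 9 of 9 cases, with 1, Myl3, called, beside 2.1% of all genes falling. The share of all genes with a negative slope is not given here. All 9 were listed as markers of 1 fibre type, so their directions are not separate observations. They are given here beside the members' relations with Cers1.

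When the fast muscle and slow fibre marker scores were added as covariates, 2.71% of genes in place of 4.87% were called along Cers1. Scd2, Srebf1 and Insig1 were among those called in that fit. Pearson's r with the fast muscle score was 0.019 for Scd2, 0.117 for Srebf1 and 0.079 for Insig1. With the slow fibre score it was negative for all 3, at -0.307, -0.245 and -0.338 in the same order.

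**Figure D5:**
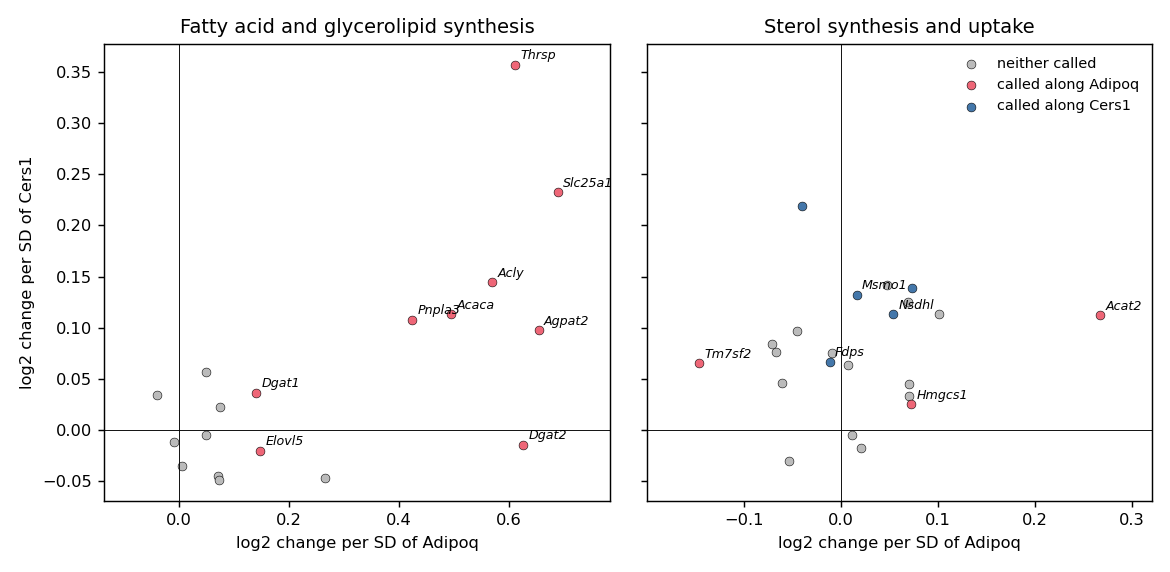
Slope of each listed gene on Adipoq (horizontal axis, log2 change per SD) against its slope on Cers1 (vertical axis, log2 change per SD), for fatty acid and glycerolipid synthesis (left, 18 genes) and sterol synthesis and uptake (right, 22 genes); colour gives the call and the called genes named in the text are labelled. On the left 9 genes are called along Adipoq and 0 along Cers1; on the right 3 are called along Adipoq and 5 along Cers1.

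Along Srebf1, the whole table gave 66 calls, or 0.491% of genes; 0.29% rose. The members Scd2 (0.64 ± 0.06 per SD), Insig1 (0.31 ± 0.04), Fasn (0.62 ± 0.13) and Scd1 (0.45 ± 0.11) were among them. The listed genes that rose included Thrsp (0.56 ± 0.12) and Acaca (0.39 ± 0.08) of fatty acid synthesis and Nsdhl (0.12 ± 0.02) and Cyp51 (0.22 ± 0.05) of sterol synthesis. Acaca encodes acetyl-CoA carboxylase, the step before fatty acid synthase. The number of calls over all genes rested on animals 81 and 67, the 2 lowest in Srebf1 at 4.28 and 4.30. Without them it was 11, and Scd1 was no longer called (limma adjusted p = 0.0636). Pearson's r of Srebf1 with Scd1 was 0.368 without them, in place of 0.387.

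Along Fasn 11 of 18 fatty acid genes and 3 of 22 sterol genes rose, against 2% of all genes rising, and along Elovl6 the counts were also 11 and 3, against 1.95%. Along Scd1 they were 9 and 4, against 2.16%. Along Scd2 they were 4 and 7, against 1.03%, and along Insig1 6 and 8, against 0.863%. Without animals 20 and 54 the counts along Insig1 were 3 and 4. Whether the counts of the members differ from each other was not tested.

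Outside the members, by Pearson's r over the 92 animals, Fasn was matched most closely by Slc25a1 (r = 0.930), Tkt, the pentose phosphate enzyme transketolase (r = 0.923), and Acly (r = 0.905), and Elovl6 by the same 3 genes (r = 0.881, 0.905 and 0.876 in that order). Scd1 was matched, members again left aside, by Cdo1, a cysteine dioxygenase (r = 0.831), Slc25a1 (r = 0.820) and Slc36a2, an amino acid carrier (r = 0.811). The relation of Fasn with Slc25a1 was 0.887 given Adipoq, and that of Scd1 with Cdo1 0.657.

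The genes outside the members most like Scd2 included Aplp2 (r = 0.645), a relative of the amyloid precursor protein, and Cers1 (r = 0.587). The members were left out of this ranking for the other genes too: Insig1 was matched by Thrsp (r = 0.60), Nsdhl (r = 0.595) and Aplp2 (r = 0.587), and Srebf1 by Cers1 (r = 0.495), Nsdhl (r = 0.473) and Aplp2 (r = 0.462). Cers1 was thus the gene with the highest r to Srebf1 outside the members, once genes with a mean under 1 were left out. Fads1 was matched by Islr (r = 0.570), Scara5 (r = 0.562) and Scara3 (r = 0.555), and Fads2 by Bmp5 (r = 0.526), Itga11 (r = 0.509) and Elk3 (r = 0.506). The most negative partners were Ankrd1 for Srebf1 (r = -0.458), Myot for Insig1 (r = -0.527), Cbx6 for Fasn (r = -0.437), Yipf7 for Elovl6 (r = -0.389), Tnfrsf10b for Scd1 (r = -0.404), Hnrnpu for Scd2 (r = -0.560), Norad for Fads1 (r = -0.537) and Ank3 for Fads2 (r = -0.496).

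Between the 5 title-number runs, which held 33, 14, 21, 11 and 13 animals, 0 of the 8 members differed by limma's F test, where 2 of 13441 genes, or 0.0149%, were called. Adjusted p-values of the members lay between 0.749 and 0.961. Run means of Fasn ran from 5.68 to 6.46, those of Scd2 from 5.64 to 6.25 and those of Srebf1 from 5.63 to 5.84, each a smaller range than the SD between animals of the gene.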

How the data were processed

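RNA of quadriceps muscle from 92 mice was measured by sequencing of polyadenylated RNA, with 500 ng of RNA per library per the labels' protocols. The authors deposited 1 table of log2 values for the whole series; raising 2 to the values gave a median sum of 1006085 per animal, so the deposited log2 values are taken as close to log2 CPM, and the exact scaling is not given in the sources used here. The submitters' processing notes name bcl2fastq, MultiQC, kallisto 0.50.1, edgeR and mm10, without role or order. No read counts were used, so depth and counting error are unknown, and only the variation among mice gives a precision.

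From 13456 lines, 15 repeats were removed; 0 value columns were without a sample. Slopes were fitted with limma 3.58.1 (R 4.3.3), 1 linear model per gene on the standardised predictor, with the variance trended on the mean level; p-values were adjusted by Benjamini and Hochberg's method across the whole table, with a threshold of 0.05. The trend of SD on mean is a lowess fit with a span of 0.3. Marker scores are means of standardised genes. Correlations used two-sided permutation tests of 100000 resamples (scipy 1.17.1). The slope fit was tested on simulated data. Gene positions and exon lengths come from GENCODE M21 (GRCm38), promoters from RefSeq. P-values rest on the variation between animals, since each sample is labelled as a separate muscle. Relatedness of the animals was not modelled.

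The members and the 6 pathway and 8 marker lists were chosen with earlier results of these data known. Genes were named by rule: the members, Adipoq and Cers1; for each member the 3 genes with a mean of at least 1 with the largest positive r and the 1 with the most negative, where called; and up to 4 genes per list with the smallest p-values, or all called where 5 or fewer passed. Nr1h3 stands in both the regulator and the LXR list. Elovl3, Pklr and Mag, listed, were not analysed here, and some genes that the rule names are not reported here. Alternatives changed covariates, the scale, the filter, the scaling and the animals; leaving out animals 20 and 54, or 62, the marker score slopes and the other gene length were added after seeing the data.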

Additional observations from a re-analysis of the deposited data

How the results depend on the processing

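Depth is unknown, so low levels such as those of Fads2 and Elovl6 carry a counting error that cannot be given. The animals form 1 group, all relations are between animals, and no cause was tested. The share of genes called moved by over 1.5 times in the cases below; the cause was not tested, beyond the smaller number of animals where animals were left out. Along Adipoq it was 2.10% without animals 69 and 54, in place of 3.90%. Along Cers1 it was 2.95% with 3 principal components and 2.71% with the fast and slow fibre scores, in place of 4.87%. Along Srebf1 it was 0.201% with 3 principal components and 0.0818% without animals 81 and 67, in place of 0.491%. With Adipoq as a covariate it was 0.409% in place of 2.36% along Scd1, 0.796% in place of 2.07% along Elovl6 and 1.06% in place of 2.15% along Fasn. Between title-number runs it was 0 with 3 principal components, in place of 0.0149%. Centring each animal on its median moved the rising share of the calls from 81.1% to 65.8% along Adipoq, and from 56.5% to 42.2% for Adipoq minus Cers1. Counted pairs of members stayed between 13 and 15 of 28.

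Slopes that changed sign were near 0 and not called. The slope of Scd2 on Adipoq was 0.0415 with Cers1 as a covariate, 0.00338 with the run as a covariate and 0.0555 with the other adipocyte markers as the predictor. That of Fads2 was 0.0122, 0.0164 and 0.000564 with Cers1, with the run and on the log2(value + 1) scale. That of Fads1 was -0.0128 with 3 principal components. The difference Adipoq minus Cers1 for Fads1 was 0.0146 without animal 62. With the run as a covariate, Fasn had 0.0188 on the fast muscle score and Fads2 0.0114 on the adipocyte score. Of the other alternative values of the members' slopes on Adipoq, Cers1 and Srebf1 and of the difference, 298 kept direction and call, 7 fell short of the test and 5 newly passed it. No paired analysis was possible because all animals belong to 1 group.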
